A study of Mus musculus with 2 samples.

Results

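The major histocompatibility complex (MHC) genes were described in chromatin of mouse common myeloid progenitors (CMP), the bone marrow cells from which granulocyte, monocyte, erythroid and megakaryocyte precursors arise. Members were the protein-coding genes of GENCODE release M21 whose symbol starts with H2-, plus B2m, Tap1, Tap2, Tapbp, Psmb8, Psmb9, Ciita, Nlrc5 and Cd74, which gave 43 of 21853 genes. They comprised 24 class I genes, 9 class II genes, 6 genes of peptide loading and processing (B2m, Tap1, Tap2, Tapbp, Psmb8, Psmb9), 3 genes grouped here as regulators and invariant chain (Ciita, Nlrc5, Cd74), and H2-Ke6, which carries the H2- prefix but encodes a steroid dehydrogenase. The measurement was ATAC-seq, in which a transposase inserts adapters into accessible DNA, and the data were peak lists in mm10 from 2 libraries of 50000 cells each. Both libraries were 1 group: untreated primary CMP of male C57BL/6J mice aged 5 to 6 weeks, with the same donor label on both. Nothing in the labels shows that the replicates were taken from separate animals, so their spread may be only technical. No other condition or control was measured, and the files held no read counts, so depth is unknown, no test between groups was possible, and the main counts are given beside the same count over all genes or all regions.

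MHC class I molecules display peptides made in the cytosol on nearly all nucleated cells. They consist of a heavy chain and the invariant light chain beta-2-microglobulin, encoded by B2m, and receive peptides cut by the proteasome (Psmb8 and Psmb9 are its interferon-inducible subunits) and carried into the endoplasmic reticulum by the transporter Tap1-Tap2 with the help of tapasin (Tapbp). MHC class II molecules present peptides from endosomes and are best known from dendritic cells, macrophages and B cells; the invariant chain Cd74 guards their groove until H2-DM exchanges it for peptide. Promoters of both classes carry an S-X-Y module bound by RFX, CREB-type and NF-Y factors, on which the coactivators NLRC5 (class I) and CIITA (class II) assemble.

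A gene was called open where an edge of a merged region of the conservative list, the main list made from both replicates, lay within 1 kb of a start of one of its protein-coding transcripts. Of the 43 members 26 were open (60.5%), against 60.8% of all protein-coding genes. The classes differed in their counts: 8 of 9 class II genes (88.9%), all 6 loading and processing genes, Nlrc5 and Ciita but not Cd74, and 9 of 24 class I genes (37.5%). Within class I, 5 of 8 K, D and Q genes and 3 of 4 T genes were open, but only H2-M3 among 12 M genes. In bulk chromatin, a region accessible in few cells and one weakly accessible in many cannot be told apart.

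The bases before the start are shown for members on which these counts turn, taken from the GRCm38.p6 genome (the mm10 build) and ending at the base before the start. The first group holds class I heavy chains and their light chain: H2-K1 and H2-Q4 had strong regions, and B2m pairs with both. Capitals mark the letters searched for 5 motifs on both strands: the X box (CTNGCAAC or ACNGATGA), the Y box of NF-Y (ATTGG), the core site of CREB-type factors (TGACG), an NF-kB site (GGGNNTTCC or GGNNTTTCC) and an interferon response element (GAAANNGAA or GAANNGAAA). The core site can overlap the X box or the Y box.
H2-K1, chr17:34000348-34000497, minus strand: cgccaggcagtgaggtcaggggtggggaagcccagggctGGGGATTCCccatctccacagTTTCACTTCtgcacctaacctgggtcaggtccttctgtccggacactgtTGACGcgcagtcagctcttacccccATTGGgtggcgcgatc
H2-Q4, chr17:35379417-35379616, plus strand: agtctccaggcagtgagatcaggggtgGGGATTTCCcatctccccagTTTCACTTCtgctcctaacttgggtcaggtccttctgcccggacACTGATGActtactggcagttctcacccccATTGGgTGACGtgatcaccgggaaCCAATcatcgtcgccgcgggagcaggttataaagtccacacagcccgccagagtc
B2m, chr2:122147536-122147685, plus strand: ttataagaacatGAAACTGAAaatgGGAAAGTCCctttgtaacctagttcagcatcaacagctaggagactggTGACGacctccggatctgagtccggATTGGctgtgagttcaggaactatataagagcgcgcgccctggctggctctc

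The second group holds the classical class II genes, which were open from a CpG-poor start. Capitals mark the X box, the Y box and the core site of CREB-type factors.
H2-Ab1, chr17:34263089-34263208, plus strand: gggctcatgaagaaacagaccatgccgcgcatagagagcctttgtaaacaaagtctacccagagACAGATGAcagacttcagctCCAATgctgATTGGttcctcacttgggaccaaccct
H2-Aa, chr17:34287824-34287943, minus strand: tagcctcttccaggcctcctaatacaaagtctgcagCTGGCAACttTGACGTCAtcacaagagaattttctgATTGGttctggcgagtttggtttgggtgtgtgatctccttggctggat
H2-Eb1, chr17:34305747-34305866, plus strand: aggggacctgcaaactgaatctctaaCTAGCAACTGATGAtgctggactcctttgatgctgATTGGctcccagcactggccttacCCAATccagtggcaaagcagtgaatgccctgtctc

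The third is the stretch before the open start of Ciita, the class II coactivator, whose promoters are used by different cell types. Capitals mark an ETS-IRF composite (GGAANNGAA), a kind of element bound by PU.1 with an interferon regulatory factor.
Ciita, chr16:10488059-10488278, plus strand: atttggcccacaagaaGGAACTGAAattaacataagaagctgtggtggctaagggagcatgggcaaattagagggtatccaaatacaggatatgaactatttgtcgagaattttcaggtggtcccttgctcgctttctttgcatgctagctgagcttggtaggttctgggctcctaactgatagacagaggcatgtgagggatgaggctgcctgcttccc

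Among the class I heavy chains, H2-Q4, a nonclassical class Ib gene on chromosome 17, had the strongest promoter of all members. The deposited signal, a height whose scale the sources used here do not give, was 21.3 at H2-Q4 in the conservative list, 18.6 in the ranked list of replicate 1 and 19.7 in that of replicate 2. Because lists differ in length, each gene's strongest promoter signal in a list was also placed among all genes with a promoter region in the same list; H2-Q4 stood at the 99.8th percentile in the conservative list and at 99.7 and 99.8 in the replicates. H2-K1, the classical heavy chain, had a signal of 15.0, with 13.3 in replicate 1 and 14.8 in replicate 2, at percentiles 88.1, 86.7 and 90.9. H2-D1, the other classical heavy chain of this strain, had only 8.69, with 8.64 and 8.21 in the replicates, at percentiles 31.6, 42.8 and 34.6. H2-K1 thus ranked above H2-D1 in both replicates, with no overlap of their values. The sequence around the H2-K1 start had its best match elsewhere in the genome within or overlapping the H2-D1 gene, at 87.9% identity. The sequence around the H2-D1 start had its best match at H2-Q10 instead, at 84.3%, so the 2 starts are not shown to align with each other. The H2-K1 and H2-Q4 summits lay 34 and 66 bp upstream of the annotated start, and that of H2-D1 lay 273 bp downstream of its own. Whether these annotated starts are the ones used in these cells was not tested.

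H2-Q6 and H2-Q7 encode Qa-2, a class Ib protein that can be anchored to the membrane by lipid. H2-Q6 had a signal of 14.4, with 11.3 in replicate 1 and 17.03 in replicate 2, and H2-Q7 had 14.1, with 12.03 and 14.9. They were the 2 members with a near-identical copy, defined as at least 95% identity over at least 80% of the 1 kb around the start: both starts match H2-Q5, a polymorphic pseudogene, at 98.2% and 98.1% identity. How reads from such copies were placed is not given in the sources used here, so the signal of each is uncertain. H2-Q6 had the widest gap between replicates of the 26 open members, at percentiles 70.2 and 97.9, a difference of 27.7 percentile points. H2-Q1, H2-Q2 and H2-Q10 (a heavy chain known as a secreted liver protein) were not open, and H2-Q1 had no region at its start in any replicate list read. H2-Q2 had a region of 3.79 in the ranked list of replicate 1 and none in replicate 2.

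The T genes lie beyond the Q genes. H2-T22, a ligand of some gamma-delta T cells, had a signal of 14.3, with 12.5 in replicate 1 and 14.99 in replicate 2, and shared both of its regions with the start of Gm6034. H2-T23, which encodes Qa-1, the ligand of NKG2A, had 2 regions: one with its summit 925 bp inside the gene, of 7.80, with 7.54 and 7.59, and one 132 bp from the start, of 7.24, with 6.65 and 7.79. The inner region was the stronger in replicate 1, and the one near the start in replicate 2. H2-T24 had 9.07, with 9.09 and 8.67. H2-T22 ranked above H2-T23 and H2-T24 in each replicate. H2-T3, which encodes the thymus leukaemia antigen, was open in none of the lists read here. H2-T22 and H2-T23 fell just short of the copy rule, with best matches of 94.7% identity that include Gm7030, so their signals share part of that doubt.

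H2-M3, which presents formylated bacterial peptides, was the only open M gene, with a signal of 11.02 and 10.2 and 10.8 in the replicates, at percentiles 55.6, 59.9 and 59.2. The other 11 M genes were open in neither replicate's own list. They include the 6 H2-M10 genes, known from vomeronasal neurons, where olfactory tissue expresses them with pheromone receptors. On a longer, more permissive list, the replicated peaks of the series, H2-M5 and H2-M10.2 gained a region, together with H2-Q2, H2-Q10, H2-Eb2 and Cd74, so that 32 members were open against 68.3% of all genes. The series IDR-thresholded list opened 26 members (background 60.7%), the pseudoreplicated list 30 (background 68.5%) and an archived replicated list 32 (background 73.8%). Of 19 olfactory receptor genes in the 3.49 Mb from H2-K1 to H2-M2, 1 was open, and of the other 116 genes in that stretch that are not members 69 were open (59.5%).

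**Figure D1:**
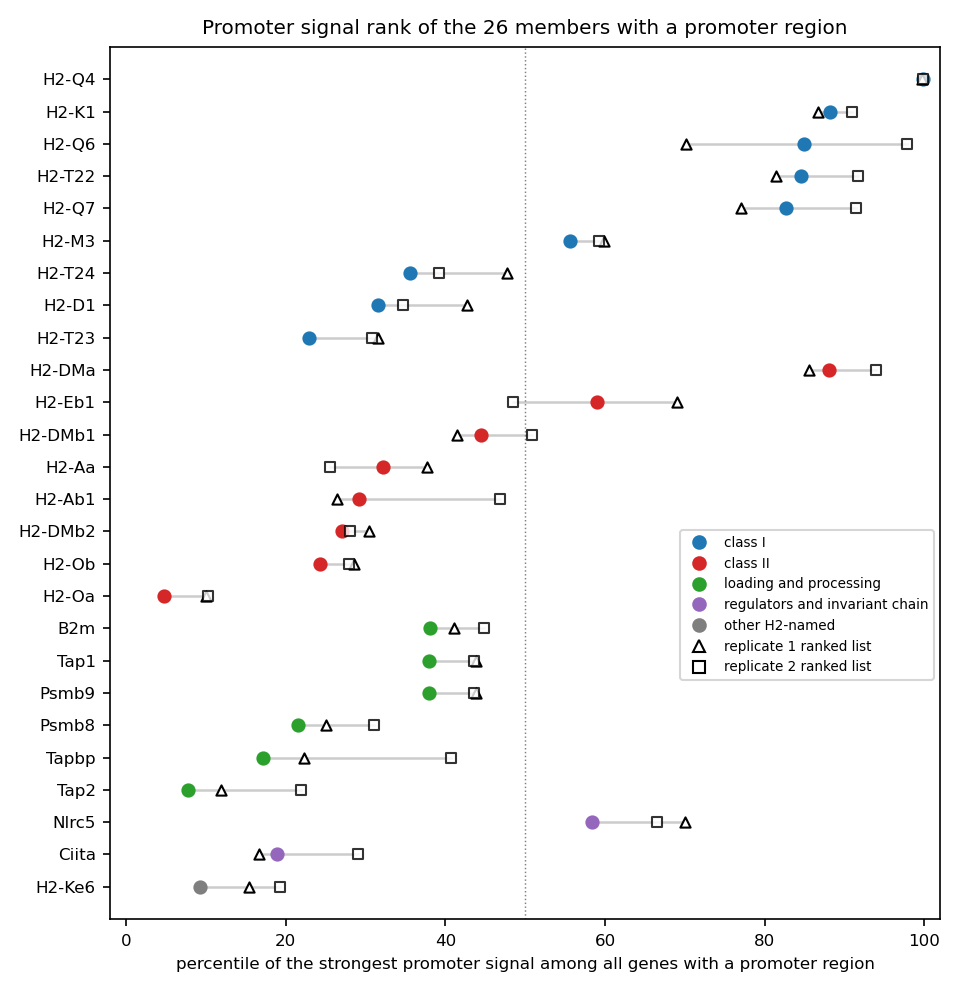
Percentile of each open member's strongest promoter signal (x axis) among all genes with a promoter region, in the conservative list (filled circles, coloured by role) and in the ranked lists of replicate 1 (triangles) and replicate 2 (squares); grey lines join the values of a gene and the dotted line marks the middle of the scale. The 5 strongest class I genes and H2-DMa sit above the 70th percentile in all 3 lists, and H2-Q6 has the widest gap, from 70.2 to 97.9.

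In class II, the chaperone gene H2-DMa stood apart from the molecules it serves. H2-DMa had a signal of 14.99, with 13.1 in replicate 1 and 15.6 in replicate 2, at percentiles 88.1, 85.5 and 94.0. This region served the starts at 34135628 and 34135654 on chromosome 17, while the upstream start at 34122832, which lies in a region shared with Brd2, had 3.22. H2-DMb1, its partner chain, had 9.94, with 8.50 and 9.90. H2-DMb2 had 8.22, with 7.41 and 7.48, from a start at 34143307 that lies 1.93 kb upstream of its reference start, where no region was listed. In both replicates H2-DMa was above both beta chains, and H2-DMb1 was above H2-DMb2.

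The classical class II genes were open at lower ranks. H2-Eb1, the beta chain of I-E, had a signal of 11.4, with 11.2 in replicate 1 and 9.63 in replicate 2. H2-Aa, the alpha chain of I-A, had 8.75, with 8.15 and 7.22. H2-Ab1, its beta chain, had 8.45, with 7.01 and 9.45. Their order was opposite in the replicates, so H2-Aa and H2-Ab1 do not differ beyond the spread, while H2-Eb1 was above both in each replicate. By rank within its list, H2-Eb1 was at percentiles 69.0 and 48.4 in replicates 1 and 2, H2-Aa at 37.6 and 25.6, and H2-Ab1 at 26.4 and 46.9. The summits lay 60, 76 and 56 bp upstream of the starts of H2-Eb1, H2-Aa and H2-Ab1, inside the sequences printed above. H2-Eb2, a further I-E beta-like gene, was the only class II member without a promoter region; replicate 1 alone had one, of 5.68, in its ranked list.

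H2-Oa and H2-Ob encode H2-O, which restrains H2-DM in B cells and some dendritic cells. H2-Oa had 5.40, with 4.99 in replicate 1 and 5.28 in replicate 2, at the 4.80th percentile, the lowest of the open members. Only the value of replicate 1 passed into that replicate's own thresholded list. H2-Ob had 7.96, with 7.22 and 7.47, and its summit lay 894 bp inside the gene, not at the start. H2-Ob was above H2-Oa in both replicates.

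**Figure D2:**
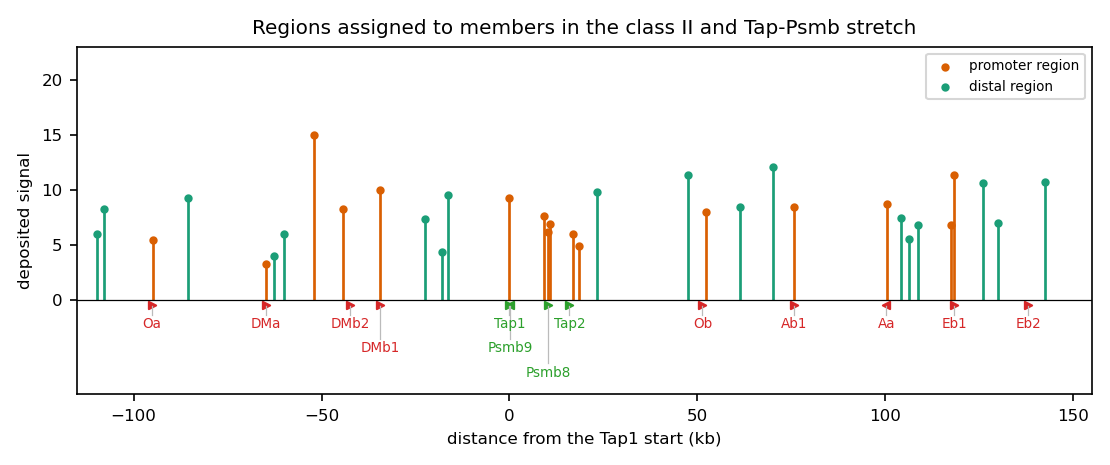
Deposited signal (y axis) of regions assigned to members in the stretch of chromosome 17 that holds class II, Tap and Psmb genes, by distance in kb from the Tap1 start (x axis). Orange stems are promoter regions, green stems distal regions, and arrowheads mark each member's reference start and direction (H2- omitted). The H2-DMa region at 14.99 is the tallest, and H2-Eb2 has distal regions but none at its start.

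The loading and processing genes were all open, at ranks below the middle of all open genes. Tap1 and Psmb9 are divergent neighbours and shared 1 region, of signal 9.29, with 8.72 in replicate 1 and 9.11 in replicate 2. B2m had 9.30, with 8.48 and 9.24. Psmb8 had 3 regions. The strongest, of 7.66, with 6.87 and 7.68, had its summit 1021 bp upstream of the start, in an exon of Tap1, and is therefore also among the distal regions counted below. The region at the start, with its summit 12 bp away, had 6.18, with 5.65 and 6.10, and another, 556 bp inside the gene, had 6.88, with 5.604 and 7.81. Tapbp had 7.17, with 6.54 and 8.81, in a region shared with Zbtb22, and Tap2 had 5.95, with 5.24 and 6.79. By its strongest region, Tap2 was the lowest of the 6 in each replicate and, like H2-Oa, entered only the thresholded list of replicate 1. The conservative percentiles ran from 7.75 (Tap2) to 38.0 (B2m), so the light chain and both transporter chains ranked below the heavy chains H2-K1 and H2-Q4. In that list B2m and Tap1 ranked above H2-D1, at 31.6, and Tap2 below it. B2m and H2-D1 stood at percentiles 41.1 and 42.8 in replicate 1 and at 44.8 and 34.6 in replicate 2, an order that changed between replicates.

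Of the 2 coactivators, Nlrc5 ranked higher. Nlrc5 (chromosome 8) had a signal of 11.3, with 11.3 in replicate 1 and 11.5 in replicate 2, at percentiles 58.4, 70.1 and 66.4, and only the first of its 4 coding starts had a region. Ciita (chromosome 16) had 7.37, with 5.90 and 7.60, at percentiles 18.9, 16.6 and 29.0. Nlrc5 was above Ciita in each replicate, with no overlap. Ciita has several alternative promoters: the first, farthest upstream, is known from dendritic cells and macrophages, a later one from B cells, and the last from interferon-treated cells. Among its annotated coding starts, only the middle one, at 10488279, had a region in the conservative list and in each replicate's own list. The first starts, at 10480059 and 10480164, had none in those lists or in the replicates' ranked lists, and 2.97 in the replicated list. The last starts, from 10489746 to 10489783, had a region only in longer lists, with 4.55 in replicate 1, 3.81 in replicate 2 and 4.64 in the replicated list.

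Cd74, which encodes the invariant chain, lies on chromosome 18 and was not open. Its start had no region in either replicate's own thresholded list; the ranked list of replicate 1 had one of 2.44, at the 0.0935th percentile, and that of replicate 2 had none. Yet 4 distal regions were nearest to Cd74, of signals 5.45 to 5.98, and 1 of them, 3.62 kb inside the gene at 5.98, with 5.75 and 5.73 in the replicates, was in both own lists. With a promoter window of 2500 bp, Cd74 was the only member gained. So 8 of 9 class II genes had a promoter region, while the chain that accompanies them did not.

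Across the open members, the median percentile was 36.8, where all open genes lie around the middle by construction. It was 82.7 for the 9 open class I genes, 30.7 for the 8 open class II genes and 29.7 for the 6 loading and processing genes. Without H2-Q6 and H2-Q7, whose signals are uncertain, the class I median was 55.6 over 7 genes. H2-T23, H2-D1 and H2-T24, at percentiles 22.9, 31.6 and 35.5, ranked among the class II genes. Keeping only the upper 50% of regions by signal left 8 of 9 open class I genes, 5 of 8 class II genes, and 4 of 8 loading, processing and regulator genes, where it left 71.8% of all open genes.

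**Figure D3:**
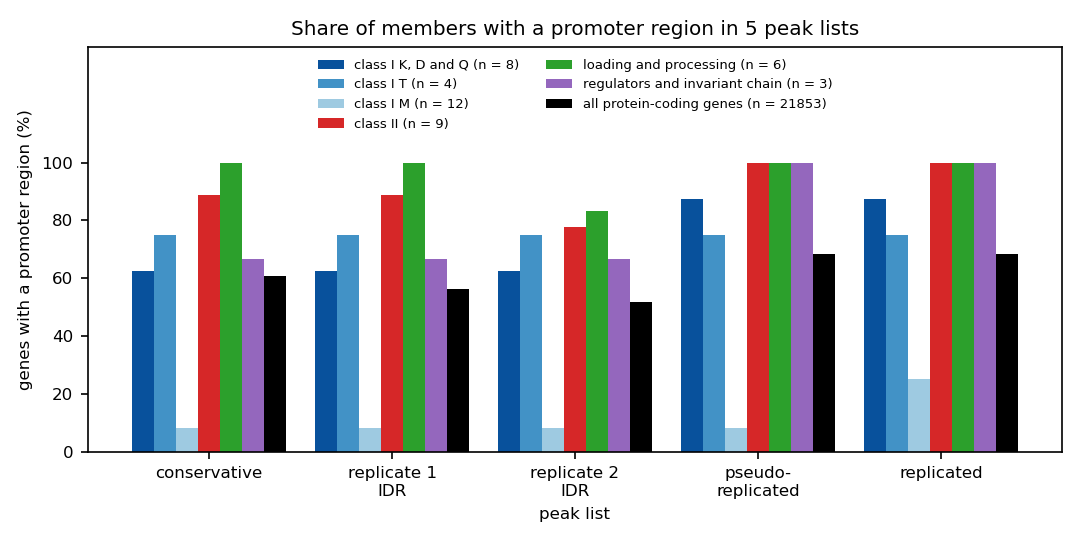
Percent of genes with a promoter region (y axis) in 5 peak lists (x axis), for class I subgroups, class II, loading and processing genes, regulators with the invariant chain, and all protein-coding genes in black. Bars are shares of genes in a list, with no error since each list is 1 measurement. The M genes are at 8.33% in 4 of the lists shown and at 25.0% in the replicated list, whereas class II lies between 77.8% and 100%.

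The replicates listed largely the same members. In the own thresholded lists, 24 members were open in both, where 51.1% of all genes were, and 17 in neither. H2-Oa and Tap2 were open in replicate 1 alone, where 5.16% of all genes were, and no member in replicate 2 alone, where 0.842% were. The own list of replicate 1 opened 26 members (background 56.3%) and that of replicate 2 opened 24 (background 52%). In their longer pseudoreplicated lists 29 members were open in replicate 1 (background 66%) and 26 in replicate 2 (background 63.9%), with Cd74, H2-Eb2 and H2-Q2 in replicate 1 alone. When the same number of strongest regions, 37620, was taken from each, no member was open in replicate 1 alone and 3 were in replicate 2 alone (Ciita, H2-Ke6 and Tapbp), so the direction of this difference changed once the lists were equally long. Between the ranked lists, the percentiles of the 26 open members had a median absolute difference of 7.06 points, and 11 were higher in replicate 1 and 15 in replicate 2. The labels name 2 sequencing instruments for replicate 1 and none for replicate 2; the part of this in the differences was not tested.

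The 30 further genes of antigen presentation and its regulation that had a match, out of a list of 32, were open in 29 cases, beside 60.8% of all genes. The transcription factors that bind the S-X-Y module were all among them: Rfx5 at 12.2, Rfxank at 13.0, Rfxap at 9.79, Creb1 at 8.64, Nfya at 7.63, Nfyb at 14.4 and Nfyc at 16.0. So were the interferon regulatory factors Irf1 at 9.37, Irf2 at 9.43 and Irf8 at 13.2. The exception was Ctss, the cathepsin that trims the invariant chain, which had 4 distal regions and no promoter region. In the conservative list, Ctss thus shared with Cd74, its substrate's gene, the lack of a promoter region beside several distal ones. The likeness did not hold in longer lists. All 30 genes, Ctss included, were open in the ranked list of each replicate, against 66.1% and 64.0% of all genes. Cd74 had a region only in that of replicate 1.

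Markers of the labelled cell type and of cells rich in class II were read the same way. Of 8 CMP markers 7 were open (Kit, Cd34, Flt3, Spi1, Cebpa, Mpo and Runx1), against 60.8% of all genes. Mpo and Runx1 ranked low, at percentiles 3.25 and 2.55, and Mpo was in neither own list. Each replicate's own list opened 6 of the 8, against 56.3% and 52% of all genes. Gata2 had 4 distal regions but none at its starts in the conservative list. In the ranked list of each replicate all 8 were open, against 66.1% and 64.0% of all genes. Open promoters were also listed for 6 of 7 dendritic cell markers, of which 5 were in the own list of replicate 1 and 2 (Siglech and Tcf4) in that of replicate 2. They were listed for 3 of 7 B cell markers (Pax5, Ebf1 and Cd79b, and not Cd79a or Ms4a1), 4 of 7 macrophage markers and 1 of 6 matched T cell markers (Cd3d). Their part in the class II regions was not tested.

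The 36 promoter regions of the members had a median width of 608.5 bp, against 757 bp for the promoter regions of all genes. Of these 36, 18 had their summit within 100 bp of a coding start (against 54.5% of all promoter regions) and 27 within 400 bp (75.0% against 77.9%). In the replicates' own lists, 26 were found in both (72.2%, against 71.8% of all promoter regions), 7 in replicate 1 only (19.4% against 11.3%), none in replicate 2 only (against 2.19%) and 3 in neither (8.33% against 14.7%). The 3 in neither were side regions of Tapbp, H2-Ke6 and H2-T22, whose stronger region was in both lists, and those in replicate 1 only included the region 846 bp upstream of B2m.

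Class I and class II starts were also compared by CpG content. The ratio of observed to expected CpG, taken 500 bp on each side of the reference start, was below 0.5 for 9815 genes, and 28.6% of those were open, against 87.1% of the others. Among class II members, 8 had a ratio below 0.5, and 7 of these were open; the eighth was H2-Eb2. At their open starts the ratios of these 7 ran from 0.117 for H2-Ob to 0.276 for H2-Ab1; H2-DMb2 had 0.205 there and 0.094 at its reference start, where no region was listed. H2-DMa was above 0.5 only at its reference start, the one shared with Brd2, where it was 0.851; at its open start it was 0.478. Of the 16 class I members below 0.5, 4 were open (H2-M3, H2-T22, H2-T23 and H2-T24). The 8 above 0.5 were the K, D and Q genes, and 5 of these were open. H2-Q1, H2-Q2 and H2-Q10 had ratios of 0.625, 0.634 and 0.711, close to H2-Q4 at 0.607 and H2-Q6 at 0.686, but had no region. The threshold of 0.5 was chosen after these values had been seen.

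**Figure D4:**
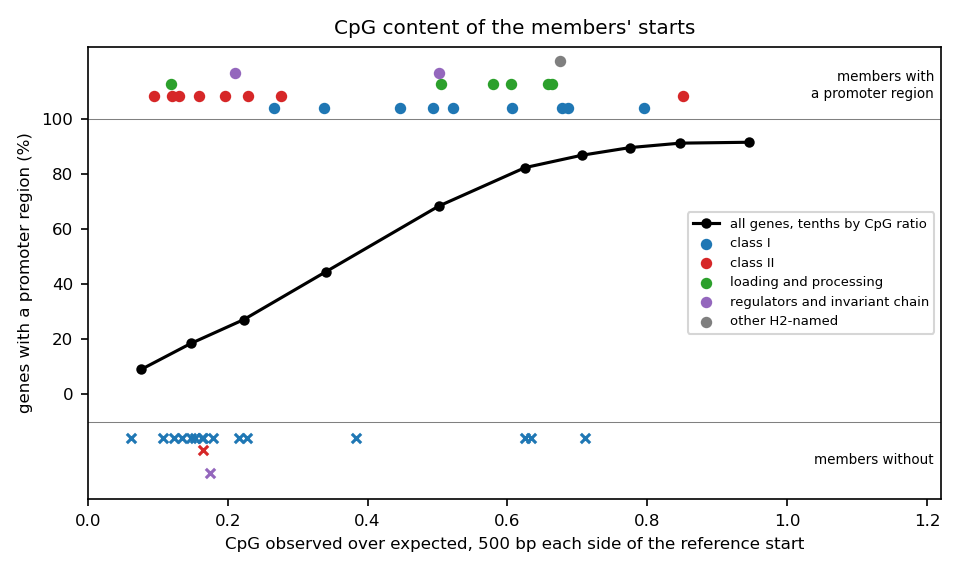
CpG observed over expected at the reference start (x axis) and the percent of all genes with a promoter region (y axis), in 10 bins of all genes of equal size (black line, plotted at each bin's median). Members with a promoter region are circles above the line at 100, those without one are crosses below, coloured by role, and their height within each band has no meaning. Open class II members lie at ratios where 18.4% to 44.4% of all genes were open, H2-DMa and H2-DMb2 excepted, whose reference starts are not the open ones.

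Motif letters were counted in the 300 bases before the reference start of every gene, as a description and not as evidence of binding. The reference start of H2-DMa lies 12.8 kb from the start at its strongest region, and that of Tapbp 3.43 kb. The bases before those strongest starts were therefore not searched, and H2-DMa counts below as lacking both boxes only at its reference start. The Y box was present before 31 of 43 members, 18 of 24 class I and 7 of 9 class II, against 39.6% of all genes. The X box in its 2 forms was present before 6 class II and 7 class I members, against 5.62% of all genes. The form searched first, CCTNGCAAC, was found before H2-Ob alone among the 43 members, against 1.62% of all genes. An X box followed by ATTGG on the gene's own strand, with first bases 20 to 40 apart, was found before 24 of 21853 genes (0.110%). Of these 24, 9 were members: H2-Aa, H2-Ab1, H2-DMb2, H2-Eb1 and H2-Ob of class II, and H2-M3, H2-Q4, H2-Q6 and H2-Q7 of class I. The forms were picked after the H2-Aa, H2-Ab1 and H2-Eb1 sequences had been read, so those 3 are no independent count. In the printed sequences the X box starts 56 bases before the start of H2-Ab1, 84 before H2-Aa, 109 before H2-Q4, and at 94 and 88 before H2-Eb1, where both forms overlap. All 9 genes were open, against 60.8% of all genes, but H2-DMb2 at another start and H2-Ob 894 bp inside the gene. The H2-Q6 and H2-Q7 starts both nearly match H2-Q5, so they are not independent of each other. How many of the non-members with this arrangement were open was not counted, so a link between it and openness was not tested.

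Open and closed class I members were compared for other motifs by count. An NF-kB site was found before 4 of 9 open class I genes (H2-K1, H2-Q4, H2-Q6 and H2-Q7) and 1 of 15 closed ones, against 10.04% of all genes. An interferon response element in the form searched first, GAAANNGAA, was found before 2 of 9 open and 1 of 15 closed ones, against 8.91% of all genes. With a second form, GAANNGAAA, added after the H2-K1 sequence had been read, the counts were 7 of 9 and 3 of 15, against 15.4%, so most of that contrast rests on a form picked from an open member. A TATA box (TATAAA) was before 1 of 9 open and 10 of 15 closed ones, against 13.6%. The Y box was before 7 of 9 and 11 of 15. H2-D1 and H2-T23 were open without an NF-kB, interferon or Y box match, but only bases before the start were searched. Their strongest summits lay 273 and 925 bp downstream of the start, so the bases there were not searched. The class I genes share ancestry, so their sequences are not independent of each other. The ETS-IRF composite lay 204 bases before the open start of Ciita, and a match was found before 4 of 43 members, against 8.06% of all genes. PU.1 letters (GAGGAAGT) were before none of the 43 members, against 2.64%.

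Distal regions were those with a summit more than 1 kb from every start, given to the nearest start within 100 kb. Members had 66, a mean of 1.53 per gene against 2.06 over all genes, with at least 1 at 31 of 43 members, against 60.4% of all genes. Class I members had 35, class II 15, loading and processing genes 6, and the regulators with Cd74 10. In the own list of replicate 2 alone, the 66 became 37 (17 class I and 9 class II), which is 56.1% of the main count, where the regions of all genes became 49.9% of theirs. All 15 class II regions lay within 20 kb of their start, as did 28 of 35 class I regions, against 54.3% of the distal regions of all genes. The distance to the nearest start is limited by the spacing of coding starts, so where starts lie close together short distances follow by construction. The nearest start is a naming rule and does not show that a region acts on that gene.

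The class II distal regions formed a chain from H2-Oa to H2-Eb2. The strongest lay 5.43 kb upstream of the H2-Ab1 start, with a signal of 12.1, 10.8 in replicate 1 and 11.6 in replicate 2, at the 85.4th percentile of distal regions. It lies in an exon of a non-coding H2-Ab1 transcript whose start is 86 bp from the summit. A region 3.73 kb upstream of H2-Ob had 11.4, with 11.05 and 9.62. H2-Eb2, whose start had none, had a region 4.35 kb inside the gene with 10.7, and 8.34 and 9.97 in the replicates, and H2-Eb1 had one in an intron, 7.60 kb from its start, with 10.6, and 9.46 and 9.42. All 4 were in both own lists. The bases around the H2-Ab1 summit are shown as the strongest of them, with a Y box and an ETS-IRF composite in capitals.
H2-Ab1 distal region, chr17:34257675-34257875, plus strand: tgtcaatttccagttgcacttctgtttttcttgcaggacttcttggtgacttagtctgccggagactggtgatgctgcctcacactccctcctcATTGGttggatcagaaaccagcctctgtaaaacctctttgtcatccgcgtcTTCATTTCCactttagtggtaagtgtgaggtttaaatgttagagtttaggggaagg

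Several class I distal regions lay at starts of genes outside the protein-coding set. Of the 66 distal regions, 9 had some annotated transcript start within 1 kb of the summit, of which 5 belonged to pseudogenes, 1 to a lincRNA and 3 to non-coding transcripts of members. The region named for H2-Q4 at 14.4 kb downstream, with a signal of 16.2, 14.3 in replicate 1 and 15.4 in replicate 2, had its summit 91 bp upstream of the start of H2-Q5, the polymorphic pseudogene that H2-Q6 and H2-Q7 nearly match. It stood at the 97.4th percentile of distal regions. The region 18.6 kb downstream of H2-K1, with 11.3, 9.98 and 12.1, lay 54 bp from the start of the pseudogene H2-K2. The signals of these pseudogene starts, 16.2 and 11.3, lay within the range of the open class I genes, from 7.80 at H2-T23 to 21.3 at H2-Q4. Because H2-Q5 is the near-identical copy of H2-Q6 and H2-Q7, its 16.2 is uncertain for the same reason as theirs. The bases before the H2-Q5 start are shown for comparison with H2-Q4 above, with the same motifs in capitals. The H2-Q5 stretch has 150 bases where that of H2-Q4 has 200, so sites farther upstream of H2-Q5 are not shown. The lack of NF-kB and interferon capitals upstream of its X box therefore does not mean that H2-Q5 lacks them.
H2-Q5, chr17:35393976-35394125, plus strand: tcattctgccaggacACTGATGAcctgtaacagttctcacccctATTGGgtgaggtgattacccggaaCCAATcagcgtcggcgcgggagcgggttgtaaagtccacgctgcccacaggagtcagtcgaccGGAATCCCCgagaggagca

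The strongest distal region given to any member lay 30.7 kb downstream of the H2-M10.4 start, between genes, with a signal of 18.1, 15.2 in replicate 1 and 17.1 in replicate 2, at the 99.1st percentile of distal regions. The 12 M genes had 14 distal regions, of median percentile 60.6, against 57.6 for class I in all, 39.4 for class II and 52.8 for all members. No M10 gene was open itself. Upstream of H2-T3, which was not open either, lay regions of 12.8, in the own list of replicate 1 only, and 12.7, with 11.5 and 11.2 in the replicates and in both own lists. Strong regions beside members on other chromosomes were found 9.39 kb upstream of B2m in an intron of Patl2, with 13.8 (12.7 and 11.1), and 16.2 kb upstream of Nlrc5 with 12.2 (10.8 and 11.3). Both were in both own lists.

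**Figure D5:**
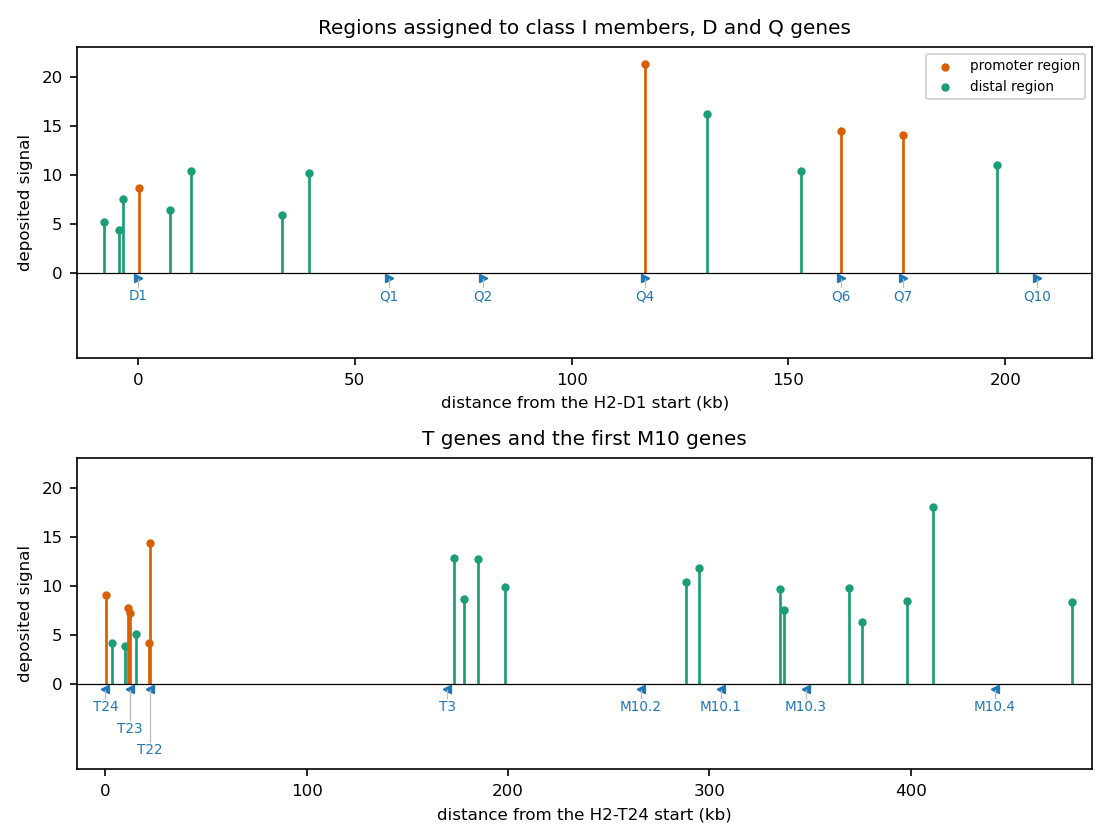
Deposited signal (y axis) of regions assigned to class I members on chromosome 17, by distance in kb from the H2-D1 start (upper panel, D and Q genes) and from the H2-T24 start (lower panel, T genes and the first M10 genes). Orange stems are promoter regions and green stems distal regions. The distal region beside H2-Q4 at 16.2 lies at H2-Q5, and the tallest stem of the lower panel, 18.1, has no start beneath it.

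In the 201 bases around distal summits, motif counts of the members were near those of all distal regions for the RUNX motif (21 of 66, 31.8% against 29.8%), the GATA motif (9 of 66, 13.6% against 14.3%) and the Y box (15 of 66, 22.7% against 20.8%). PU.1 letters were at 3 of 66 (4.55% against 9.56%) and the CTCF motif at 2 of 66 (3.03% against 4.72%). The X box in its 2 forms was at 10 of 66 (15.2% against 4.42%), including the summits nearest to H2-K2 and H2-Q5. These forms were picked after member promoters had been read, and H2-K2 and H2-Q5 are pseudogenes of the same family, so this is no independent count. The form searched first, CCTNGCAAC, was at 1 of 66 (1.52% against 0.760%). The letters searched were TGTGGT for RUNX. For GATA factors they were AGATAA. Of the 66, 2 were mostly repeat sequence (3.03%), against 2.57% of all distal regions. The regions were split between the replicates' own lists as 33 in both (against 44.4% of the distal regions of all genes), 12 in replicate 1 only (18.2% against 19.1%), 4 in replicate 2 only (6.06% against 4.89%) and 17 in neither (25.8% against 31.7%).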

How the data were processed

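ATAC-seq peaks of 2 common myeloid progenitor libraries (1 group) were analysed; the authors deposited peak lists in mm10, per the labels. The aligner, peak caller and settings were not given in the sources used here. Each deposited list gives a signal per peak (scale not stated), a peak score, −log10 p and q values and, in ranked lists, an IDR (irreproducible discovery rate) score; thresholded lists were made by the authors on both replicates or on each alone. Only the signal was used, to rank regions within a list; depth per library is unknown, which leaves the precision of a signal unknown.

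Overlapping peaks were merged into regions (at least 1 bp overlap), keeping the strongest summit. The conservative IDR-thresholded list (102186 peaks, 67395 regions on chromosomes 1 to 19, X and Y) was the main set, and the replicates' own lists were set beside it. Starts came from GENCODE M21 protein-coding transcripts (54361 starts of 21853 genes). A reference start is that of the best-tagged coding transcript (APPRIS, CCDS, basic). Copies were searched with BLAST 2.17.0 over 500 bp each side of it. Sequences came from the GRCm38.p6 genome; the RefSeq promoter table matched 36 of 43 members and was not used. Merging and assignment were tested on simulated regions. Named genes were all members of the rule, and of the other lists those a count turns on. Members and lists were chosen with earlier results of these data known; the 2-form X box and interferon motifs, the CpG threshold, the CTCF motif and the archived list were chosen after the values had been seen. Python 3.11.15 was used. No test was run, since 1 group of 2 libraries without counts allows none. Alternatives were other peak lists, windows, start sets, merging, distances and each replicate alone.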

Additional observations from a re-analysis of the deposited data

How the results depend on the processing

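Of 88 alternative values, 62 stayed within 1.5 times the main count, or, for the median percentile, within the SD of the replicates' values (0.311 points), and 26 did not. Keeping only the upper 50% of regions by signal left 17 of 26 open members, 5 class II, and 4 loading, processing and regulator members, and 34 distal regions (22 class I, 6 class II). The replicated and the pseudoreplicated lists gave 103 and 105 distal regions (29 and 30 class II), and the archived replicated list, added later, 169 (68 class I, 41 class II). The median percentile of 36.8 became 38.0 in the replicated list, 39.4 in the pseudoreplicated list, 38.2 in the upper 50%, 35.6 with a 2500 bp window, 38.7 with 1 start per gene and 49.4 in the archived list. With single replicates, values ran from 24 to 26 open members (main 26), 9 and 9 class I, 7 to 8 class II, 7 to 8 loading, processing and regulator members, 37 to 48 distal regions (17 to 24 class I, 9 to 14 class II), and a median percentile of 31.8 to 32.2; the lower counts are those without replicate 1. Members open in 1 replicate alone went from 2 to 0 for replicate 1 and from 0 to 3 for replicate 2 when equally many regions were taken. The cause was not tested, apart from list length, which these lists set by construction. With a single start per gene, Ciita lost its region. Class I stayed below, and class II above, the share of all genes in each peak list run. No paired analysis was possible because there is 1 group and no second group to pair with. Unknown depth limits every statement that a region is missing: a start without one was not listed, not shown to be closed.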
